A study of Mus musculus with 6 samples.

Results

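The family of miR-148a, miR-148b and miR-152 consists in the mouse of 3 hairpins, Mir148a, Mir148b and Mir152, and each hairpin yields a 5p and a 3p arm. Rows of the deposited table were taken as family members when the miRNA name began with mmu-miR-148a, mmu-miR-148b or mmu-miR-152. This gave 6 mature miRNAs of the 1039 in the table (762 of them with mouse names). Liver miRNA had been sequenced in 30-week-old wild type ICR mice, an outbred stock, with 3 mice in the J group and 3 mice in the M group and 1 library per mouse. Both groups ate high-fat diet (HFD) throughout. After 12 weeks of it, the J group received JTXK granule, an extract of several medicinal herbs, by gavage for 8 weeks, and the M group received sterile water. No mouse on standard diet was sequenced among these libraries, so every comparison is between 2 groups fed HFD. The comparison asked whether the granule shifts the liver miRNA profile of diabetic mice. Values are RPM, the reads of a miRNA scaled by the total miRNA reads of its library.

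A miRNA guides the Argonaute protein to mRNAs, mostly through pairing of its seed (bases 2 to 8) with the 3′ untranslated region, and the paired mRNA is repressed. One arm of a hairpin is usually kept in Argonaute as the guide, and the other is mostly degraded. In the liver, miR-148a is an abundant miRNA known to repress Abca1, which encodes the cholesterol exporter that loads HDL. It has also been linked to the lipogenic transcription factor SREBP1. Mature sequences of all 6 members were found in RefSeq (GRCm38.p6) and are shown because the family is defined by them. The seed is in capitals.
mmu-miR-148a-3p: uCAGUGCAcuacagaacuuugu
mmu-miR-148b-3p: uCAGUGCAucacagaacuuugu
mmu-miR-152-3p: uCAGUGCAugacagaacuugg
mmu-miR-148a-5p: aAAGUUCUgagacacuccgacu
mmu-miR-148b-5p: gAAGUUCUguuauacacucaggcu
mmu-miR-152-5p: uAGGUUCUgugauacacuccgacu

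The 3p arms of all 3 hairpins share the seed CAGUGCA, and no other of the 1679 mouse mature miRNA names in the RefSeq table carries it at bases 2 to 8. Outside the seed the 3p arms differ at few positions. Counted from the 5′ end with mmu-miR-148a-3p as reference, mmu-miR-148b-3p carries C9U and U10C and is the same at the other 20 positions. mmu-miR-152-3p carries C9U, U10G and U20G, and it is 21 bases long where the other two 3p arms have 22. With mmu-miR-148b-3p as reference, mmu-miR-152-3p carries C10G and U20G. The sources used here do not state how many mismatches the authors' counting allowed, so a read of one 3p arm with sequencing errors could have been given to another. Among the 5p arms, mmu-miR-148a-5p and mmu-miR-148b-5p share the seed AAGUUCU, while mmu-miR-152-5p has AGGUUCU. The number after L in the deposited names equalled the length of the RefSeq sequence for all 6 members.

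The hairpins lie on 3 chromosomes. The submitters' processing notes list the build mm9, the table itself gives no coordinates, and positions here are those of GRCm38, matched by name. Mir148a lies on the minus strand of chromosome 6 (51269812 to 51269910) and overlaps no other annotated gene of GENCODE M21. Mir148b lies on the plus strand of chromosome 15 (103285125 to 103285221) within an intron of Copz1, and Mir152 on the plus strand of chromosome 11 (96850393 to 96850465) within an intron of Copz2. Both host genes are read from the same strand as their miRNA and encode zeta subunits of the COPI vesicle coat.

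The letters that pair with the 3p seed, TGCACTG, were searched on the transcript strand in the 3′ untranslated region of Abca1 (GENCODE M21, longest such region per gene). It holds 2 matches in 3156 bases, on the minus strand at chr4:53033883-53033889 and chr4:53030974-53030980. Each is shown with the 23 bases before it and the match in capitals.
Abca1, near the stop codon: gaaggaagagcgaggtcttccttTGCACTG
Abca1, farther on: gctgtctgtaatggatctattttTGCACTG

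An A after the match favours Argonaute binding, and neither match in Abca1 is followed by one. Of the 21037 mouse genes with an annotated 3′ untranslated region, 12.7% hold the match. Among the genes with a region at least as long, a stretch of the length of that of Abca1 holds at least 1 match in 26.4%. A single match of 7 letters is thus common at this length. The share with 2 or more was not computed, and the matches are given as a description. mRNA levels were not analysed here.

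Depth ran from 2805177 to 4314134 miRNA reads among J libraries and from 2626353 to 4295665 among M libraries. The liver miRNAs mmu-miR-122-5p, mmu-miR-192-5p and mmu-miR-194-5p summed to 328849 to 377864 RPM in the J libraries and 332971 to 379599 RPM in the M libraries. M group replicate 1 stood apart: it exceeded all other libraries 4-fold or more (on RPM + 1) for 30 miRNAs, none of them a family member, while J group replicate 3 did so for 1 and the other libraries for 0. Whole reads could be recovered from the RPM, and the counting intervals given below are 95% Wilson intervals, which cover counting error only.

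The family made up a sizeable part of the liver miRNA pool, nearly all of it as 3p arms. mmu-miR-148a-3p was the most abundant member and ranked 5 in 5 of the libraries and 6 in J group replicate 2. It lay between mmu-miR-99a-5p (mean 87431 ± 6184 RPM for J and 84586 ± 6010 RPM for M, SD, n = 3) and mmu-miR-30a-5p (45276 ± 6023 and 29507 ± 1741 RPM), which was above it in 1 library. mmu-miR-148b-3p ranked 18 to 25 and mmu-miR-152-3p 26 to 33. By mean level over all libraries, mmu-miR-148b-3p fell between mmu-miR-101b-3p (7349 RPM, above it in 4 libraries) and mmu-miR-126b-3p (6828 RPM, above it in 2), and mmu-miR-152-3p between mmu-miR-3074-5p (4430 RPM, above it in 4) and mmu-miR-101a-3p (4156 RPM, above it in 2), so these neighbours did not hold one order. Within a library mmu-miR-148a-3p exceeded mmu-miR-148b-3p 6.74- to 10.3-fold, and mmu-miR-148b-3p exceeded mmu-miR-152-3p 1.21- to 2.12-fold, so that this order held in all 6 libraries. mmu-miR-148a-5p ranked 85 to 122. At the low end, mmu-miR-152-5p was above mmu-miR-148b-5p in only 4 of 6 libraries, at 0.800 to 1.20 times its level, and these 2 arms did not differ beyond their spread. The arms are 21 to 24 bases long, so RPM needed no correction for length, but ligation can favour one sequence over another, and levels of different miRNAs compare reads rather than molecules.

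mmu-miR-148b-3p, the intronic miRNA of Copz1, was lower in the J group. In replicate order, its level was 6062, 5287 and 5302 RPM for J and 8752, 8709 and 7554 RPM for M. The groups did not overlap, and the gap between the highest J library and the lowest M library was wider than the counting error (95% intervals from 5989 to 6136 RPM and from 7472 to 7636 RPM). The means were 5551 ± 443 RPM for J and 8339 ± 680 RPM for M (SD, n = 3), a ratio of 0.666. The groups were compared by limma on log2(RPM + 1), fitted to all 548 miRNAs whose mean exceeded 1 RPM in either group. A miRNA was called when the absolute log2 fold change exceeded 0.3 and the unadjusted p was under 0.05, which are the study's thresholds. The log2 fold change was -0.59 (standard error 0.14, 95% interval -0.92 to -0.26, limma adjusted p = 0.42), and mmu-miR-148b-3p was called.

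This was 1 of 6 members called, where 5.29% of all tested miRNAs were called (29 of 548) and 3.83% were called lower in the J group (21). The median log2 fold change of all 548 was -0.13. Groups that did not overlap were also not rare, since 13.5% of the tested miRNAs (74) showed this and 9.31% (51) had all J libraries below all M libraries. No miRNA had an adjusted p under 0.05 in limma (0 of 548, 0%), 29 had an unadjusted p under 0.05, and at an adjusted p under 0.05 edgeR called 0 and DESeq2 called 4, none of them family members. mmu-miR-148b-3p had the 5th smallest p among the 548. It was called under all 16 alternatives, with a log2 fold change from -0.66 to -0.47 and an adjusted p from 0.26 to 0.83. After median-of-ratios scaling of the libraries the J values (5156 to 6931) still lay below the M values (7160 to 8780).

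In bulk liver, fewer cells of a type and less miRNA per cell cannot be told apart. The list of stellate and smooth muscle miRNAs, of which 4 of 5 were found, summed to 12582 to 16890 RPM in the J libraries and 16765 to 25242 RPM in the M libraries, and 3 of the 4 were called lower in the J group, against 3.83% of all tested. These were mmu-miR-199a-5p (log2 fold change -0.63, standard error 0.16), mmu-miR-214-3p (-0.55, standard error 0.23) and mmu-miR-145a-5p (-0.46, standard error 0.17). mmu-miR-143-3p, the other one found, was not called. The marker lists were chosen with earlier results of these data known, so these calls are a description and not a test. Leukocyte miRNAs (5 of 5 found) summed to 595 to 866 RPM (median 705) against 796 to 4228 RPM (median 1080), so that a single M library held the upper end. Bile duct miRNAs (5 of 5) summed to 950 to 2379 RPM (median 1033) against 1203 to 4298 RPM (median 2341). Endothelial (1 of 2) and red blood cell (2 of 3) miRNAs overlapped as well, at 4166 to 6718 against 4486 to 5579 RPM and at 4286 to 6232 against 2534 to 9724 RPM. No marker found was at 0 in any library. The part of these cells in the level of mmu-miR-148b-3p was not tested.

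**Figure D1:**
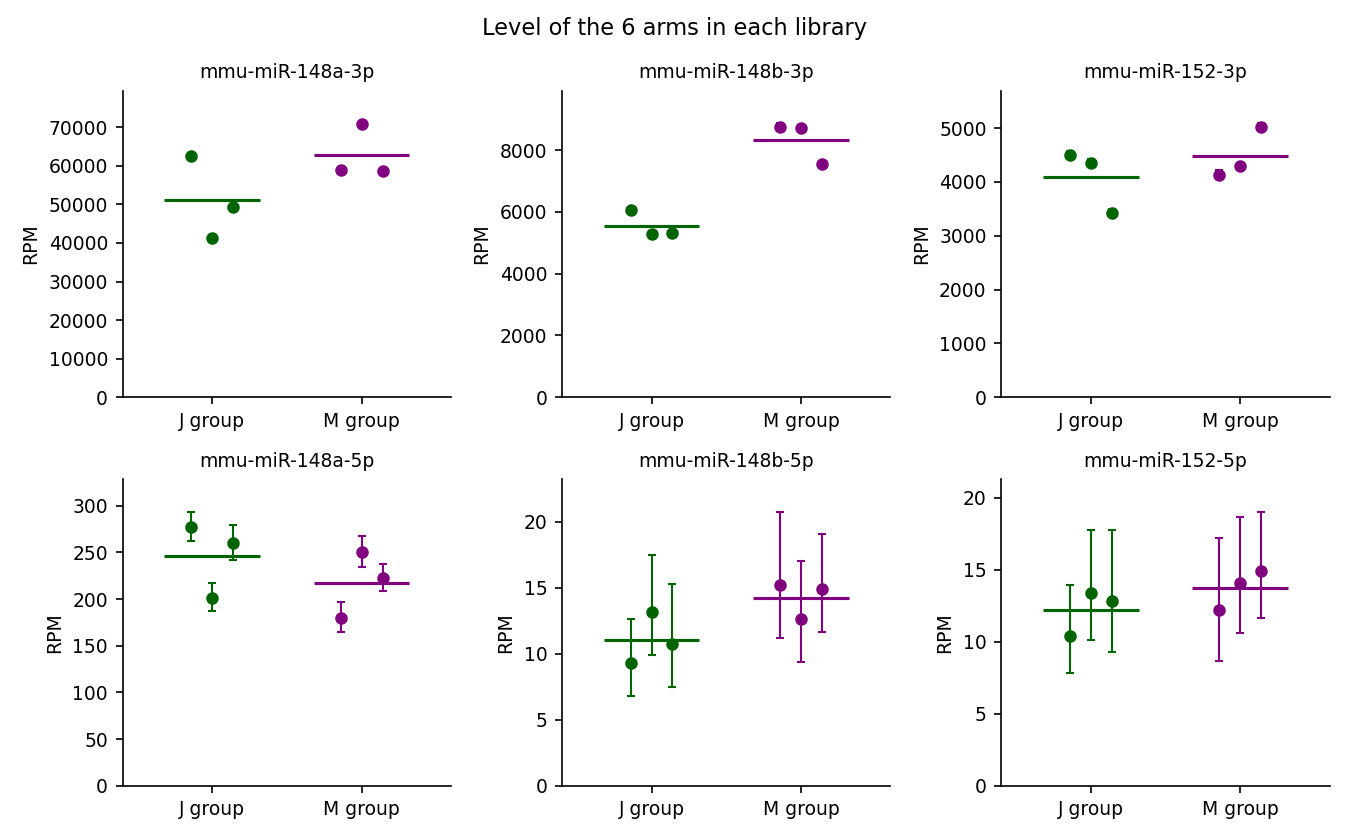
Level of the 6 family members in RPM (y axis, linear from 0, a different scale in each panel) in the J group and the M group. Points are libraries, in replicate order from left to right, bars through points are 95% Wilson counting intervals (hidden by the point where narrow), and horizontal lines are group means. In the panel of mmu-miR-148b-3p all J points, up to 6062 RPM, lie below all M points, from 7554 RPM, and in the other panels the groups overlap.

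mmu-miR-148a-3p, the dominant member, was not called. In replicate order, its level was 62590, 41187 and 49399 RPM for J and 59028, 70762 and 58790 RPM for M. J group replicate 1 lay above M group replicates 1 and 3, while J group replicates 2 and 3 lay below all M libraries. The J libraries were also more spread (coefficient of variation 21.1%) than the M libraries (10.9%). The log2 fold change of -0.32 (standard error 0.17, limma adjusted p = 0.71) had a 95% interval from -0.72 to 0.09, so the data allow anything from a J level 0.607 times the M level to one 1.06 times as high. Counting error did not limit this, since the Wilson half-width was at most 0.513% of the value. The estimate moved with the scaling, to -0.20 after median-of-ratios scaling and -0.21 after TMM scaling. With scaling, model and input all changed, it was -0.17 by edgeR and -0.18 by DESeq2. It also moved with single libraries: without J group replicate 1 the log2 fold change was -0.47 and mmu-miR-148a-3p was called (limma adjusted p = 0.72), and without J group replicate 2 it was -0.17.

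mmu-miR-152-3p, the intronic miRNA of Copz2, stood at 4504, 4354 and 3427 RPM for J and 4134, 4289 and 5020 RPM for M. The groups overlapped broadly, and only J group replicate 3 lay below all M libraries. The log2 fold change was -0.14 (standard error 0.17, 95% interval -0.54 to 0.27, limma adjusted p = 0.81). The estimate was close to the median of all tested miRNAs, and after scaling by the median of ratios it was -0.02. With a library left out it ranged from -0.21 (without J group replicate 1) to -0.012 (without J group replicate 3), and it was -0.051 without M group replicate 3.

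The 5p arms were not called either. mmu-miR-148a-5p stood at 277, 202 and 260 RPM for J and 180, 250 and 223 RPM for M. It was the only member with an estimate above 0, a log2 fold change of 0.18 (standard error 0.23, 95% interval -0.37 to 0.73, limma adjusted p = 0.81). It was 0.049 without M group replicate 1 and 0.32 without J group replicate 2. The lowest library was M group replicate 1, and the groups overlapped.

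The other 5p arms were rare. mmu-miR-148b-5p was seen in 40, 47 and 30 reads for J and 40, 43 and 64 reads for M, or 9.27, 13.1 and 10.7 RPM against 15.2, 12.6 and 14.9 RPM. mmu-miR-152-5p was seen in 45, 48 and 36 reads against 32, 48 and 64 reads, or 10.4, 13.4 and 12.8 RPM against 12.2, 14.1 and 14.9 RPM. At this depth the counting intervals were wide, for example from 7.49 to 15.3 RPM for mmu-miR-148b-5p in J group replicate 3 and from 8.63 to 17.2 RPM for mmu-miR-152-5p in M group replicate 1. Their log2 fold changes were -0.35 (95% interval -0.98 to 0.28, adjusted p = 0.71) and -0.16 (-0.77 to 0.45, adjusted p = 0.84) in limma. The former was -0.21 with a pseudocount of 10 RPM, and the latter was -0.056 without J group replicate 1, -0.23 without M group replicate 1 and -0.055 after median-of-ratios scaling. A change in mmu-miR-148b-5p as large as that of mmu-miR-148b-3p lay within its interval, so a difference between these 2 arms was not shown. That interval includes the spread between mice as well as counting error.

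**Figure D2:**
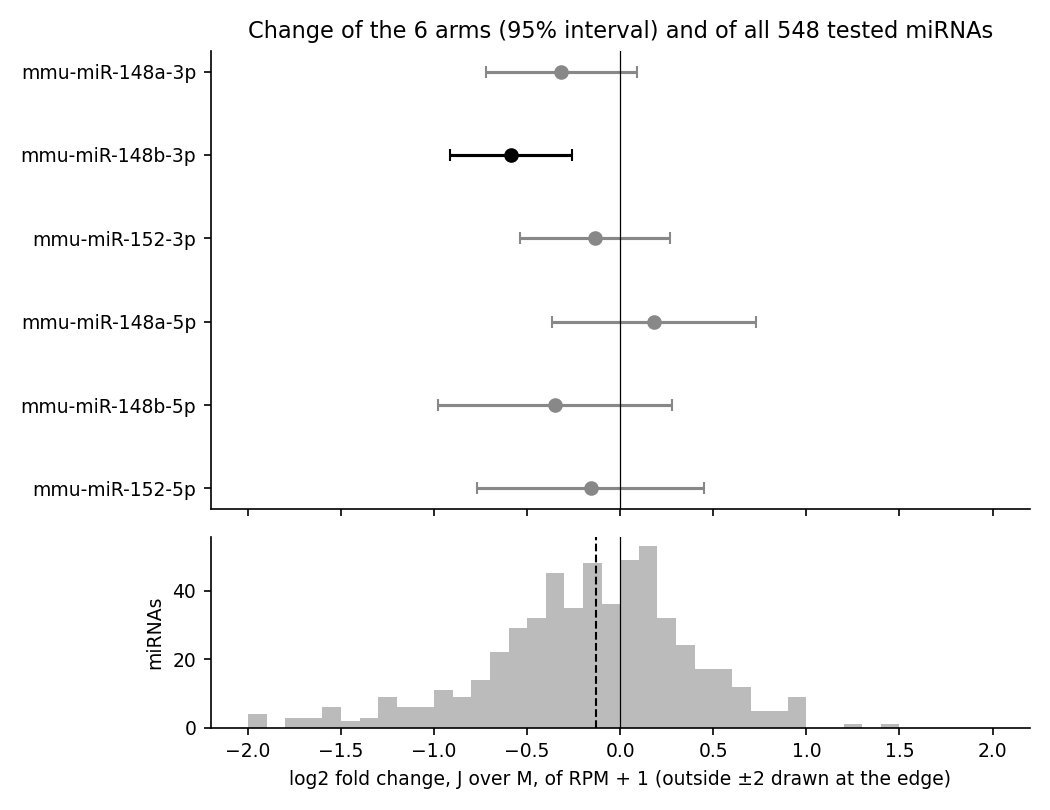
Upper panel: log2 fold change of RPM + 1, J over M, of the 6 members from limma, with 95% intervals (black, called; grey, not called). Lower panel: the same quantity for all 548 tested miRNAs, as a histogram (y axis, number of miRNAs; values outside ±2 drawn at the edge) with a dashed line at their median of -0.13. The interval of mmu-miR-148b-3p, -0.92 to -0.26, does not reach 0, and the other 5 intervals do.

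The 3p arms share a seed, so their summed reads give the amount of this seed in each library. In replicate order, the sum took 7.32%, 5.08% and 5.81% of the miRNA reads for J, and 7.19%, 8.38% and 7.14% for M. J group replicate 1 lay within the range of the M libraries, and the other two J libraries lay below it. The means were 60704 ± 11385 RPM for J and 75680 ± 7004 RPM for M (SD, n = 3). Of the difference between these means, -14975 RPM (J minus M), mmu-miR-148a-3p held 78.8%, mmu-miR-148b-3p 18.6% and mmu-miR-152-3p 2.58%. With a library left out, these shares ranged from 68.4% to 82.9%, from 14.4% to 26.5% and from 0.380% (without J group replicate 3) to 5.14% (without J group replicate 2). The share of mmu-miR-152-3p was 0.682% without M group replicate 3 and 4.41% without M group replicate 2. mmu-miR-148a-3p made up 81.0% (J group replicate 2) to 85.6% (J group replicate 1) of the sum. The sum was thus bound to follow this member, whose own difference was not called. The 5p arms held 0.287% to 0.486% of the reads of all 6 members.

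**Figure D3:**
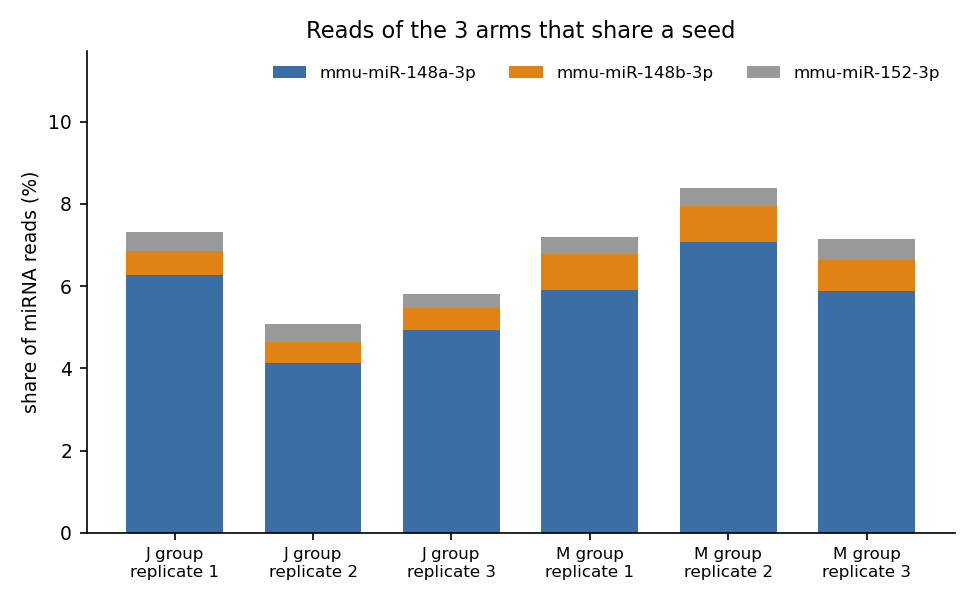
Share of all miRNA reads of a library (y axis, percent) taken by the 3 arms with the seed CAGUGCA, stacked by member, for the 6 libraries. The bars reach 5.08% to 7.32% in the J group and 7.14% to 8.38% in the M group, and mmu-miR-148a-3p makes up most of each.

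Ratios of 2 members within a library do not depend on how libraries are scaled. There were 6 ratios, the 3 pairs of 3p arms and the 5p to 3p ratio of each hairpin, each compared by an exact two-sided permutation test, for which 3 libraries against 3 cannot give a p below 0.1. mmu-miR-148b-3p stood at 9.69%, 12.8% and 10.7% of mmu-miR-148a-3p for J, and at 14.8%, 12.3% and 12.8% for M. J group replicate 2 fell within the M range. The difference in log2 ratio, J minus M, was -0.27 (standard error 0.14, exact permutation p = 0.2, adjusted over the 6 ratios p = 0.4). It ranged from -0.38 without J group replicate 2 to -0.18 without J group replicate 1. A difference between these arms in how they responded was therefore not shown.

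Against mmu-miR-152-3p, mmu-miR-148b-3p was at 1.35, 1.21 and 1.55 times its level for J and at 2.12, 2.03 and 1.5 times for M. Here J group replicate 3 lay just above M group replicate 3, and the other J libraries lay below all M libraries. The difference in log2 ratio was -0.45 (standard error 0.19, exact permutation p = 0.2, adjusted p = 0.4). mmu-miR-152-3p was at 7.20%, 10.6% and 6.94% of mmu-miR-148a-3p for J and at 7.0%, 6.06% and 8.54% for M (difference in log2 ratio 0.18, standard error 0.24, exact permutation p = 0.6, adjusted p = 0.72). This last difference turned to -0.013 without J group replicate 2.

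The 5p to 3p ratio of Mir148a separated the groups. mmu-miR-148a-5p was at 0.443%, 0.489% and 0.527% of the reads of mmu-miR-148a-3p for J, and at 0.304%, 0.353% and 0.379% for M. All J libraries lay above all M libraries, although neither arm separated the groups by itself. The means were 0.486% ± 0.0420 and 0.345% ± 0.0377 (SD, n = 3), a difference in log2 ratio of 0.50 (standard error 0.12, exact permutation p = 0.1, the smallest that this design allows, adjusted p = 0.4). It ranged from 0.41 to 0.56 with a library left out.

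The same ratio was computed for the 70 mouse hairpins with at least 10 reads of each arm in every library, a comparison added after the values were seen. For 15.7% of them (11) the groups did not overlap, for 8.57% (6) all J libraries were the higher ones, and 10% (7) had an unadjusted p under 0.05 in limma. Fitted together with these, the ratio of Mir148a had a standard error of 0.24 and a 95% interval from -0.03 to 1.02 (limma adjusted p = 0.36), the 11th smallest p of the 70. A separation of this kind was thus found in several hairpins, and that of Mir148a did not pass the threshold.

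For Mir148b, the 5p arm was at 0.153%, 0.248% and 0.202% of the 3p arm for J and at 0.174%, 0.145% and 0.197% for M (difference in log2 ratio 0.21, standard error 0.24, exact permutation p = 0.4, adjusted p = 0.6). This difference was 0.042 without J group replicate 2 and 0.39 without J group replicate 1. For Mir152 it was at 0.232%, 0.308% and 0.375% for J and at 0.295%, 0.328% and 0.297% for M (-0.03, standard error 0.21, exact permutation p = 0.9, adjusted p = 0.9). The groups overlapped for both hairpins. In every library the 3p arm exceeded the 5p arm 190- to 328-fold for Mir148a, 403- to 691-fold for Mir148b and 267- to 432-fold for Mir152.

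**Figure D4:**
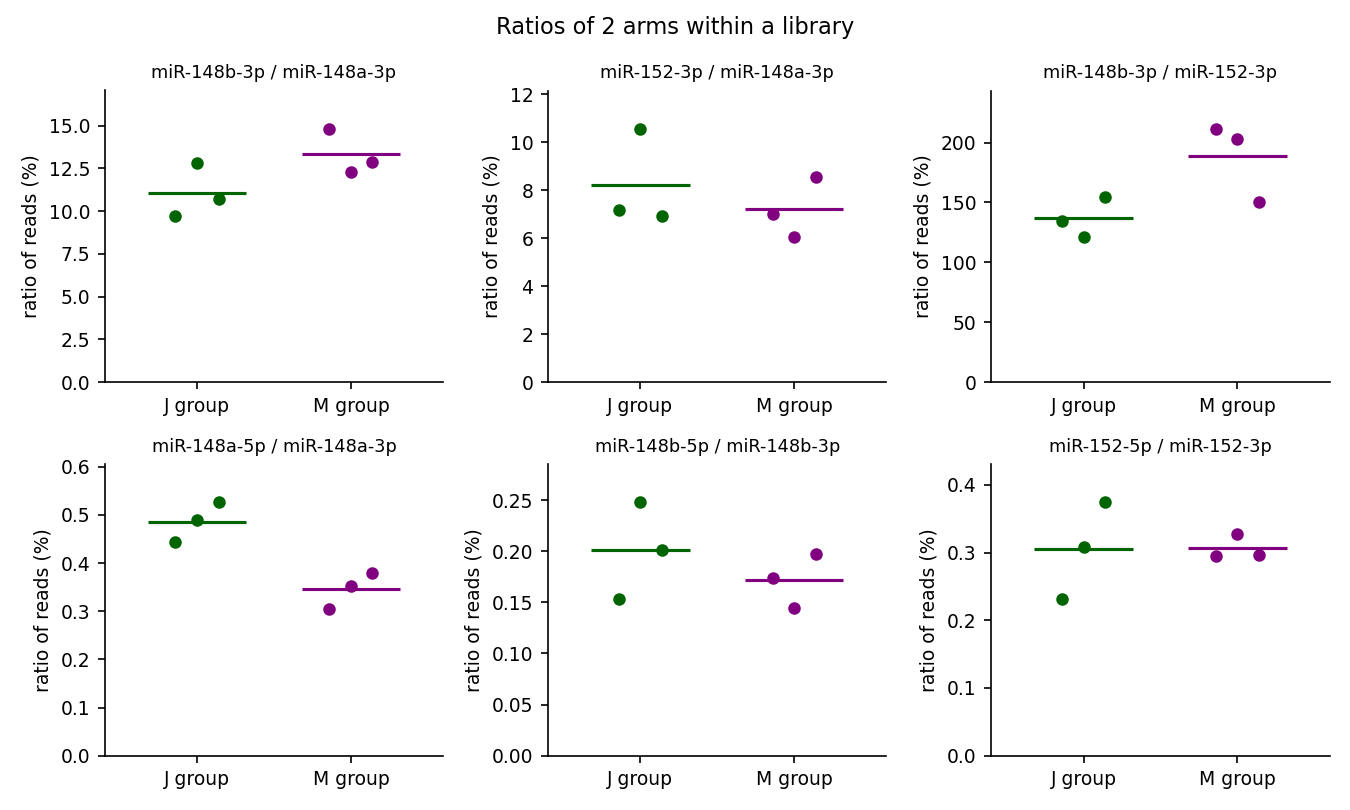
Ratio of the reads of 2 arms in the same library, in percent (y axis, linear from 0, a different scale in each panel), for the J group and the M group. Points are libraries in replicate order and horizontal lines are group means. In the panel of mmu-miR-148a-5p over mmu-miR-148a-3p the J points, 0.443% to 0.527%, lie above the M points, 0.304% to 0.379%, and the groups overlap in the other 5 panels.

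The miRNAs most like the 2 leading members in their pattern over the 6 libraries were found by Pearson correlation of log2(RPM + 1), among 268 other mouse miRNAs with a mean of at least 10 RPM. These correlations are descriptions over 6 libraries that share their scaling, and part of each reflects the difference between groups. For mmu-miR-148b-3p they were mmu-let-7a-5p (r = 0.98), mmu-miR-199a-5p (0.96), mmu-miR-146b-5p (0.96), mmu-miR-191-5p (0.94) and mmu-let-7d-5p (0.93). All 5 had J libraries below the M libraries, for example 7328 ± 529 RPM for J and 10660 ± 1133 RPM for M (SD, n = 3) for mmu-let-7a-5p. For mmu-miR-148a-3p they were mmu-miR-192-3p (r = 0.89), mmu-miR-342-3p (0.83), mmu-let-7a-5p (0.82), mmu-let-7e-5p (0.81) and mmu-miR-7a-1-3p (0.78). mmu-miR-192-3p, the minor arm of a liver miRNA, averaged 65.9 ± 14.4 RPM for J and 79.2 ± 7.34 RPM for M. Its groups and those of mmu-let-7e-5p overlapped, while mmu-miR-342-3p, mmu-let-7a-5p and mmu-miR-7a-1-3p had J libraries below the M libraries.

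Between the members, the correlation over the 6 libraries was 0.77 for mmu-miR-148a-3p with mmu-miR-148b-3p, 0.29 for mmu-miR-148a-3p with mmu-miR-152-3p and 0.36 for mmu-miR-148b-3p with mmu-miR-152-3p. Differences between these correlations were not tested. The 5p and 3p arms of one hairpin had correlations of 0.32 for Mir148a, 0.58 for Mir148b and 0.21 for Mir152.

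Other miRNAs known to act on mRNAs of cholesterol and lipoprotein genes, among them Abca1, Scarb1 (the HDL receptor) and Mttp (which loads lipid onto nascent lipoproteins), were compared in the same fit. All 23 listed were tested. By limma, 3 were called lower in the J group and 0 higher. Of all 548 tested, 3.83% were called lower, and 8 miRNAs were called higher. After median-of-ratios or TMM scaling, 2 of the list were called lower and 1 higher. The list was chosen with earlier results of these data known, so its counts and median are a description and not a test. The median log2 fold change was -0.40, against -0.13 for all 548.

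mmu-miR-199a-5p, which stellate cells make, stood at 723, 638 and 663 RPM for J and 1078, 994 and 1050 RPM for M (log2 fold change -0.63, standard error 0.16, limma adjusted p = 0.43). mmu-miR-145a-5p, a smooth muscle miRNA directed at Abca1, had 4456, 3763 and 4590 RPM against 5427, 5300 and 6964 RPM (-0.46, standard error 0.17, adjusted p = 0.71). Both had J libraries wholly below the M libraries. mmu-miR-96-5p, directed at Scarb1, had 142, 271 and 605 RPM against 1533, 864 and 493 RPM (-1.60, standard error 0.59, adjusted p = 0.71), and its groups overlapped.

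The other 20 of the list were not called, 3 of them with J libraries wholly below the M libraries. This made 5 of the 23 with that order of the groups, which 9.31% of all tested miRNAs showed. mmu-miR-122-5p, the most abundant hepatocyte miRNA, stood at 208683, 232872 and 230854 RPM for J and 233695, 262490 and 233362 RPM for M (log2 fold change -0.12, standard error 0.09). The gap between its highest J value, 232872 RPM, and its lowest M value, 233362 RPM, was narrow and was not compared with counting error. mmu-miR-27b-3p, directed at Abca1, had 21586 to 24888 RPM against 25529 to 27342 RPM (-0.16, standard error 0.11). mmu-miR-185-5p had 404 to 510 RPM against 583 to 627 RPM (-0.40, standard error 0.18). mmu-miR-33-5p, the miRNA of the Srebf2 intron and the best known repressor of Abca1, was rare, with 2.55, 10.9 and 9.98 RPM against 12.9, 7.62 and 10.5 RPM (-0.52, standard error 0.51). mmu-miR-455-5p had the highest estimate, 0.82 (standard error 0.36), and was not called.

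The median of the list leaned on M group replicate 1. In that library 7 of the 23 exceeded all other libraries 2-fold or more on RPM + 1, among them mmu-miR-128-3p with 290 RPM against 25.3 to 39.9 RPM elsewhere and mmu-miR-10b-5p with 9167 RPM against 809 to 1375 RPM. Without this library the median of the list was -0.19, against -0.08 for all tested, with 2 called lower (mmu-miR-145a-5p and mmu-miR-199a-5p) and 1 called higher (mmu-miR-10b-5p). Without J group replicate 2 only 1 was called lower. mmu-miR-130b-3p, mmu-miR-301b-3p and mmu-miR-224-5p passed the filter only through the M group. Their means were 0.717, 0.0773 and 0.939 RPM for J against 13.6, 1.65 and 1.26 RPM for M. An estimate below 0 was thus close to fixed for them, and they count in the median of the list. mmu-miR-148b-3p without M group replicate 1 had a log2 fold change of -0.55 and was still called (limma adjusted p = 0.54).

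**Figure D5:**
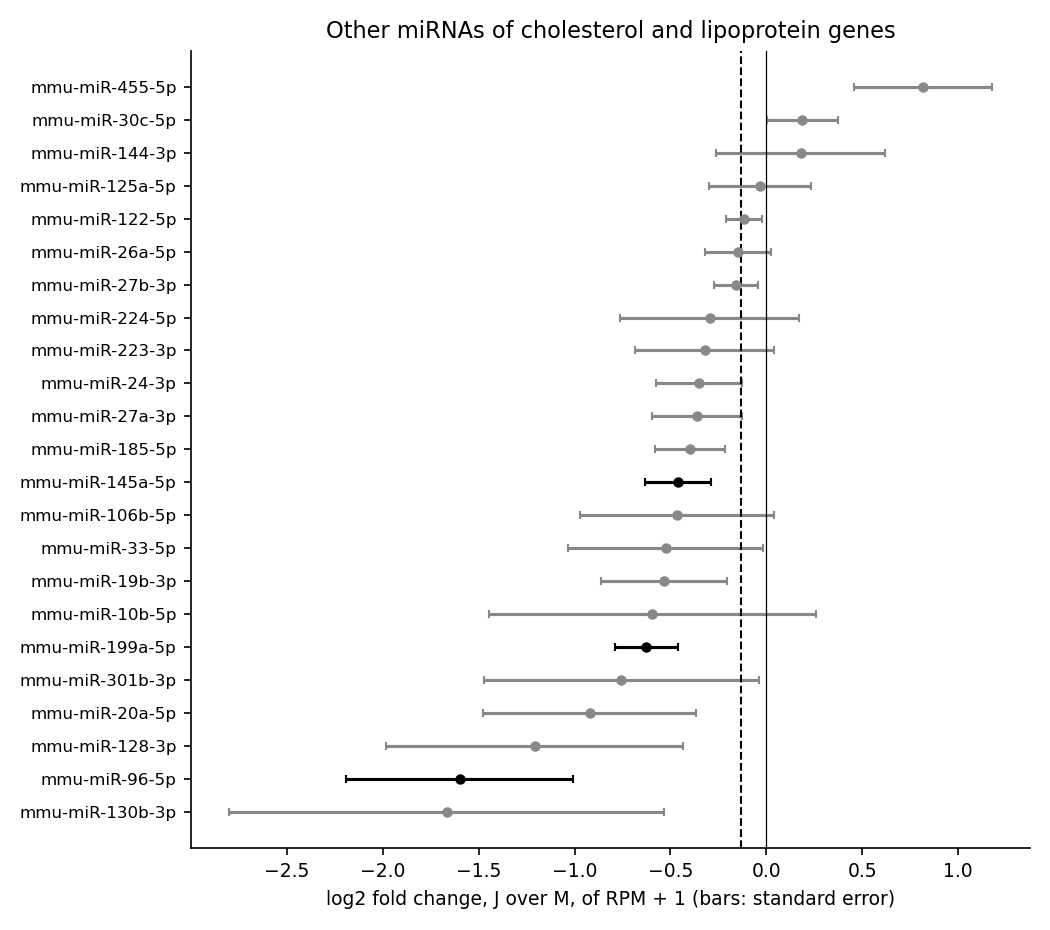
log2 fold change of RPM + 1, J over M, of the 23 listed miRNAs of cholesterol and lipoprotein genes (x axis), with bars of 1 standard error (black, called; grey, not called). The dashed line is the median of all 548 tested miRNAs, -0.13. Estimates run from -1.67 (mmu-miR-130b-3p, which passed the filter only through the M group) to 0.82. Of them 20 lie below 0, where 58.9% of all tested do, and the 3 called all lie below 0.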

How the data were processed

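Small RNA libraries of 6 livers were sequenced on Illumina HiSeq. After read filtering and identification of miRNAs against Rfam and miRBase, the authors deposited RPM values, in which each count is scaled by the library's total miRNA reads, with libraries not pooled. Aligner, counter and mismatch rule are not given in the sources used here. The build mm9 is listed in the submitters' processing notes. Each value was a whole multiple of the RPM of 1 read (100% of values within 0.05 of a whole read), so reads were recovered. Depth was 2626353 to 4314134 reads per library, and 3 reads correspond to the limit of detection.

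RPM was tested by limma 3.58.1 (variance trend, two-sided, R 4.3.3) on log2(RPM + 1), a scale that understates changes of rare miRNAs, with Benjamini-Hochberg adjustment over all 548 miRNAs tested. edgeR 4.0.16 and DESeq2 1.42.0 were run on the recovered reads as alternatives. Ratios were compared by exact permutation (scipy 1.17.1). Scripts were tested on simulated data. Members, lists and tests were chosen with earlier results of these data known. The text names all members, the 5 miRNAs most like each of the 2 leading members by correlation, abundance neighbours of the 3p arms, and listed lipid miRNAs that were called or did not overlap, with mmu-miR-33-5p, mmu-miR-122-5p and mmu-miR-185-5p. mmu-miR-214-3p, mmu-miR-143-3p, mmu-miR-455-5p, mmu-miR-128-3p, mmu-miR-130b-3p, mmu-miR-301b-3p, mmu-miR-224-5p and mmu-miR-10b-5p were named after their values were seen. Separate mice were sequenced, so p-values measure the spread between mice.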

Additional observations from a re-analysis of the deposited data

How the results depend on the processing

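All 6 members kept their direction under the 16 alternatives, and only mmu-miR-148a-3p changed its side of the thresholds, under 1 of them. Leaving out 1 library gave log2 fold changes of -0.47 to -0.17 for mmu-miR-148a-3p, which was called without J group replicate 1, and -0.66 to -0.55 for mmu-miR-148b-3p. The log2 ratio of mmu-miR-152-3p to mmu-miR-148a-3p then ranged from -0.013 to 0.31, turning without J group replicate 2, and that of mmu-miR-152-5p to mmu-miR-152-3p from -0.20 to 0.15, turning to 0.15 without J group replicate 1 and to 0.015 without M group replicate 2. Of all miRNAs, 29 were called (21 lower in the J group), 45 by edgeR, 48 by DESeq2 (35 lower) and 21 to 45 with a library left out (14 to 38 lower, highest without M group replicate 2, 32 lower without J group replicate 3). The split was 13 lower of 30 after TMM scaling and 14 lower of 32 after median-of-ratios scaling. Of the lipid list, 1 to 4 were called lower with a library left out and 0 to 2 higher (2 without M group replicate 3), and 1 was called higher without a filter, by DESeq2, or after either scaling. The cause of these shifts was not tested. The summed 3p arms had a log2 ratio of means of -0.32, from -0.47 to -0.19 under the 9 alternatives run on it.

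The titles do not state that mice with the same replicate number are paired. Deviations of same-numbered libraries had correlations of 0.05, 0.06 and -0.01, and not every library was most like its own number. With 3 libraries a group, these correlations cannot exclude a pairing. With a replicate block 27 miRNAs were called, mmu-miR-148b-3p among them, and no call on a member changed.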
